A study of Mus musculus with 45 samples.

Results

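The DNA replication machinery was followed here through the mRNAs of 37 mouse genes, chosen by symbol as known replication factors. The choice was made with earlier results of these data known, so counts of members are descriptive. All 37 had a row in both deposited tables of 55335 genes. They comprise 6 subunits of the MCM2-7 helicase, 6 of its activating partners, 4 origin licensing factors, 6 genes of the polymerases and primase, 6 of the sliding clamp and its loader, 4 of lagging-strand maturation and single-strand binding, 3 nucleotide enzymes and 2 subunits of chromatin assembly factor 1. The values come from 30 RNA sequencing libraries of cultured mouse tumour cells, in 10 groups of 3. CT26 is a colon carcinoma line and Hepa1-6 comes from a liver tumour. For the drug, wild-type CT26 and wild-type Hepa1-6 cells were exposed for 48 hours to stk, a compound that the labels give only by this name and without a dose, or to the solvent DMSO. In the knockdown experiment, untreated CT26 lines carried 1 of 3 short hairpin RNAs against Soat1 (sh1, sh2 and sh3) or the control hairpin shLucif, and untreated Hepa1-6 lines carried a scramble hairpin or shLucif, all collected 24 hours after seeding. SOAT1 esterifies cholesterol, and the title of the study names it as a checkpoint of cancer stem cells. The labels do not say whether a hairpin line is 1 clone or whether the 3 libraries of a group came from separate cultures, so p-values measure only the spread between these libraries.

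Replication starts when the origin recognition complex, CDC6 and CDT1 load MCM2-7 rings onto DNA in G1 phase, and CDC45 and the GINS complex then turn each ring into an active helicase. DNA polymerase alpha and primase lay down primers, the RFC complex loads the PCNA clamp, and polymerases delta and epsilon extend the strands while RPA covers single-stranded DNA. Many of these genes are transcribed together around the G1/S transition by E2F factors, and their mRNAs are high in proliferating tumour cells and low in resting tissue. In bulk RNA, fewer cells that express such genes and less RNA per expressing cell cannot be told apart.

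All 37 mRNAs reached 1 FPKM in every one of the 30 libraries. FPKM corrects the fragments of a gene for its transcript's length and for the size of the library, so levels can be compared between genes. In CT26 under DMSO the members ran from 3.75 FPKM for Orc1, the largest subunit of the origin recognition complex, to 169 FPKM for Pcna, the clamp, with a median of 16.0 FPKM. FPKM sums lay between 314827 and 335813 per library and read totals are unknown.

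The targeted gene and the cell type markers were checked first. Soat1 stood at 2.52 to 3.55 FPKM in the 9 CT26 libraries with sh1, sh2 or sh3, against 19.7 to 20.2 FPKM with shLucif. CT26 libraries held all 5 mesenchymal markers and 1 of 12 hepatocyte markers at 1 FPKM or more, with Alb (albumin) listed at 0, and only 1 of 8 intestinal epithelial markers under DMSO. Hepa1-6 with the scramble hairpin held 8 of 12 hepatocyte markers with summed levels of 407 to 444 FPKM, close to the 402 to 434 FPKM of Hepa1-6 under DMSO. It also held 4 of 8 intestinal epithelial markers, summing to 368 to 376 FPKM. Hepa1-6 under DMSO held 4 of these too, at 240 to 248 FPKM, against 26.3 to 30.2 FPKM in CT26 under DMSO. Thus these markers were higher in the liver line than in the colon line. Of 4 general epithelial markers, Hepa1-6 under DMSO held 3, summing to 1313 to 1362 FPKM, and CT26 under DMSO held 0. The libraries labelled Hepa1-6 shLucif stood apart. They held 4 of 12 hepatocyte markers with a sum of 67.9 to 76.2 FPKM, Alb at 1.78, 1.36 and 1.33 FPKM against 143, 123 and 139.8 FPKM with scramble, all 5 mesenchymal markers, and Soat1 at 12.7, 12.8 and 13.6 FPKM against 0.159, 0.182 and 0.0977 FPKM with scramble. They held 4 of the intestinal markers, summing to 40.9 to 44.6 FPKM, and 2 of the general epithelial ones, at 247 to 258 FPKM. These libraries go against their label, so every comparison with them is given as one with the libraries labelled Hepa1-6 shLucif, and it cannot be told apart whether a difference belongs to the hairpin or to the cells.

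The 250 bases before the transcription start are shown for 6 members whose mRNAs took different courses with the hairpins described next. Mcm3, Mcm6 and Mcm7 encode 3 subunits of one helicase ring, Rrm1 and Rrm2 encode the 2 subunits of ribonucleotide reductase, and Pola1 was the most reduced member with sh1. Sequences are from RefSeq (GRCm38.p6), read 5′ to 3′ along the gene's own strand. Capitals mark CCAAT, the letters bound by factor NF-Y, and 4 words of E2F sites (TTTCCCGC, TTTCGCGC, TTTGCCGC and TTTGGCGC), each searched on both strands.
Mcm3, chr1:20820313-20820562, minus strand: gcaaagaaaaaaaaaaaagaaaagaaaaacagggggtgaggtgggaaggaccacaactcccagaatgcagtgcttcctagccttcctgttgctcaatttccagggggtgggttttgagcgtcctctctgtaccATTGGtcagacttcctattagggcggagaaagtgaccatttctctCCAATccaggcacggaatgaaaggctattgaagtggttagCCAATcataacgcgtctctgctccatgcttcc
Mcm6, chr1:128359706-128359955, minus strand: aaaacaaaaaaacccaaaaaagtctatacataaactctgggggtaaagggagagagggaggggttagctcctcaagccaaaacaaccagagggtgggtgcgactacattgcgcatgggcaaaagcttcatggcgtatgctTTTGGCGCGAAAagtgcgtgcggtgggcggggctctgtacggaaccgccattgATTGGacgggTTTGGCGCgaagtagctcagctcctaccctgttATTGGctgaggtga
Mcm7, chr5:138171884-138172133, minus strand: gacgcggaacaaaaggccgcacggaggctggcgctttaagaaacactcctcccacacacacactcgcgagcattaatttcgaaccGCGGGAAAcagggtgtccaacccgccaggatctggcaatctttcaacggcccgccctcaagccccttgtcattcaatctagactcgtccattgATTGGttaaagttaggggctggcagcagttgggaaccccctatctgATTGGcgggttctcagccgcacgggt
Rrm1, chr7:102441445-102441694, plus strand: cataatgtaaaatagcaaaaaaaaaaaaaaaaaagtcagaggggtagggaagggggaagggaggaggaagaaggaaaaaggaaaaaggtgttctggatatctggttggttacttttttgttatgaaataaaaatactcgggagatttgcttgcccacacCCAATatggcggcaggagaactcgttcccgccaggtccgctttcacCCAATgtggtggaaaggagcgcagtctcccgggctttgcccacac
Rrm2, chr12:24708004-24708253, plus strand: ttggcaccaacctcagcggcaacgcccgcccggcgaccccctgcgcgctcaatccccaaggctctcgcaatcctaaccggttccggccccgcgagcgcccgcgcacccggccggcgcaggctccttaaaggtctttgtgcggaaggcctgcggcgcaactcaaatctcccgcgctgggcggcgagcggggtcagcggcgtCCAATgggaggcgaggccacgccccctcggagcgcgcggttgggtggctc
Pola1, chrX:93632156-93632405, minus strand: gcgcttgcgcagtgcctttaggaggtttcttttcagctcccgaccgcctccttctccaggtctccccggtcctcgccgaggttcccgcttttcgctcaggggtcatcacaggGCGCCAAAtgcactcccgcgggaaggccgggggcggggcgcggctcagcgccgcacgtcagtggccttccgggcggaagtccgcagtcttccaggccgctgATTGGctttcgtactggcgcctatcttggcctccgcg
The table of promoters held 30 of the 37 members. Mcm4, Gins1, Gins2, Gins4, Rfc2, Pole and Prim2 were not in it. An E2F word was found in 8 of the 30 (26.7%), namely Cdc6, Gins3, Mcm5, Mcm6, Mcm7, Orc1, Pola1 and Rfc3, against 402 of the 16517 promoters of protein-coding genes searched (2.43%). CCAAT was found in 20 of the 30 (66.7%), against 36.1% of the 16517. In Mcm6, TTTGGCGC on the gene's strand and TTTCGCGC on the other strand overlap, and a further TTTGGCGC starts 47 bases before the start site. Mcm3, Rrm1 and Rrm2 held none of the 4 words in this window. A match is a description of the letters and not evidence of binding.

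The knockdown comparison set each CT26 line with a Soat1 hairpin against the shLucif line, and 2 different courses were seen among the replication genes. Whether a difference came from reduced Soat1 or from another property of a hairpin line was not tested. With sh1, 19 of 37 members fell and none rose, where 18.7% of the 11832 genes tested were called lower, 19.1% higher and 37.8% in either direction (limma, Benjamini-Hochberg adjusted p under 0.05). With sh2, 23 fell and none rose, where 20% of all genes were called lower, 18.9% higher and 38.9% in either direction. With sh3, 13 members rose and 10 fell, where 30.9% of all genes were called higher, 21.6% lower and 52.5% in either direction. The median member had a log2 fold change of -0.19 with sh1, -0.20 with sh2 and 0.08 with sh3, against -0.0045, -0.01 and 0.04 over all genes tested. All fold changes are on the log2(FPKM + 1) scale. Complete separation of a hairpin's libraries from the shLucif libraries was common. Of all genes tested, 25% lay wholly higher and 25.1% wholly lower with sh1, 25.1% and 27% with sh2, and 35.8% and 26% with sh3. These shares stand beside each member said below to lie above, below or without overlap with the controls. The share of all genes separated with several hairpins at once was not counted. The summed FPKM of the 37 members was 946 to 976 with sh1, 932 to 949 with sh2 and 978 to 1027 with sh3, against 1098 to 1130 with shLucif.

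The 3 hairpins share the same 3 shLucif libraries, so calls in 1 comparison are not independent of those in another. By their calls, 18 members fell with both sh1 and sh2. Of these, Mcm3, Gins3, Pola1, Pcna, Rfc4 and Tyms also fell with sh3, Mcm6, Mcm7, Rfc1, Rfc5, Rpa2 and Chaf1a rose with sh3, and Mcm5, Cdc45, Gins2, Gins4, Rfc2 and Rfc3 were not called with sh3. Gins1, Mcm10, Orc1, Pola2, Prim1 and Prim2 were called with no hairpin. The shares of all genes with these joint calls were not counted, so the joint counts only describe the members. The split of sh3 calls was not the same under every alternative: removing a trend of fold change with transcript length left 9 members higher and 11 lower, with the calls of Cdc6, Mcm6, Mcm7 and Rfc5 lost and Mcm5 called lower. Over all genes that step moved the share of calls that were higher to 48.1%, against 58.8% before it. Markers of other cell types moved with the hairpins too. All 5 mesenchymal markers were at 1 FPKM or more in each group, and their levels summed to 394 to 416 FPKM with sh1, 387 to 403 FPKM with sh2 and 595 to 691 FPKM with sh3, against 433 to 443 FPKM with shLucif. Of 8 intestinal epithelial markers, 2 were at 1 FPKM or more with sh1, 1 with sh2 and 3 with sh3, against 1 with shLucif, with sums of 25.6 to 35.5, 24.0 to 29.0 and 42.8 to 47.3 FPKM, against 22.5 to 22.6 FPKM. Col1a1, a fibrillar collagen, had 55.8, 57.8 and 54.3 FPKM with sh3, against 18.2, 18.0 and 19.6 FPKM with shLucif. The part of these shifts in the replication results was not tested.

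**Figure D1:**
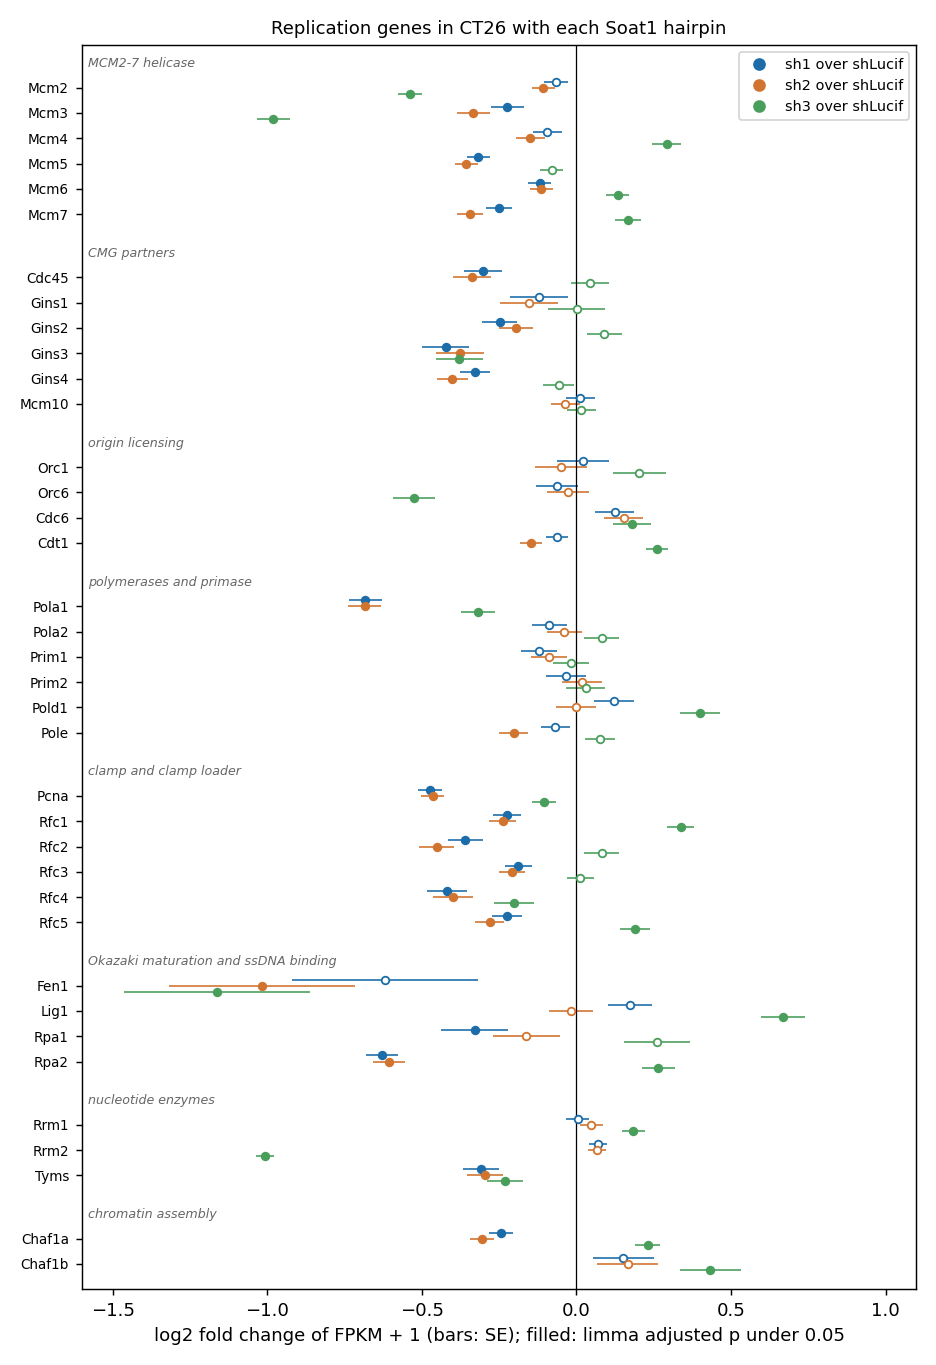
Log2 fold change (horizontal axis, of FPKM + 1) of the 37 replication genes, grouped by role, with sh1, sh2 and sh3 over shLucif in CT26. Bars are standard errors and filled points passed the limma test; all filled points for sh1 and sh2 lie left of 0, and sh3 points lie on both sides.

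The 6 MCM2-7 genes encode one ring in equal copies, yet with sh3 their mRNAs changed in different directions. Their levels were unequal with shLucif already, where the highest of the 6 was 2.23 times the lowest (mean of 3 libraries). This spread was 2.28 with sh1, 2.30 with sh2 and 2.02 with sh3, so it was not wider with sh3. With sh1, 4 of the 6 fell (Mcm3, Mcm5, Mcm6 and Mcm7), and with sh2 all 6 did, with log2 fold changes between -0.36 and -0.11. With sh3, Mcm2 and Mcm3 fell, Mcm4, Mcm6 and Mcm7 rose, and Mcm5 was not called (log2 fold change -0.08, adjusted p = 0.0984). Mcm3 had 59.4, 68.9 and 60.6 FPKM with sh1, 59.0, 57.8 and 57.8 FPKM with sh2 and 37.3, 35.4 and 37.7 FPKM with sh3, against 76.3, 73.4 and 71.1 FPKM with shLucif. All 9 hairpin libraries lay below the controls, and the sh3 libraries lay lowest without overlap. The log2 fold change of Mcm3 was -0.22 with sh1 (SE 0.0535, adjusted p = 0.00701), -0.33 with sh2 (adjusted p = 0.000589) and -0.98 with sh3 (adjusted p = 1.71e-07). Mcm2 had 74.9, 77.2 and 73.3 FPKM with sh1, 73.0, 73.0 and 73.0 FPKM with sh2 and 52.2, 53.1 and 56.4 FPKM with sh3, against 80.8, 79.3 and 75.9 FPKM with shLucif. Its sh3 libraries lay below all others, with a log2 fold change of -0.54 (SE 0.0383, adjusted p = 1.02e-06). With sh1 it was not called (-0.07, adjusted p = 0.206). Mcm7 went the other way. It had 55.7, 56.7 and 53.6 FPKM with sh1, 50.9, 54.8 and 49.8 FPKM with sh2 and 75.7, 75.2 and 71.8 FPKM with sh3, against 67.3, 66.6 and 64.1 FPKM with shLucif, so sh1 and sh2 libraries lay below the controls and sh3 libraries above them. Its log2 fold change was -0.25 with sh1, -0.34 with sh2 and 0.17 with sh3 (adjusted p = 0.000896, 9.66e-05 and 0.00662). Mcm4 rose with sh3 (45.0, 45.1 and 40.2 FPKM, against 35.1, 35.3 and 35.4 FPKM with shLucif; log2 fold change 0.29, adjusted p = 0.000381), as did Mcm6 (57.5, 58.5 and 56.9 FPKM, against 53.2, 51.0 and 53.2 FPKM; 0.13, adjusted p = 0.0110). The calls of Mcm6 with sh1 and of Mcm2, Mcm4 and Mcm6 with sh2 were lost when single libraries were left out. That of Mcm6 with sh1 was lost without shLucif replicate 1 or 3 or sh1 replicate 2 or 3 (numbers of sh1 libraries are those of their columns, which the labels tie to no sample), and with sh2 without shLucif replicate 1 or 3 or sh2 replicate 1 or 3. That of Mcm2 with sh2 was lost without shLucif replicate 1 or 2 or any 1 of the sh2 libraries. That of Mcm4 with sh2 was lost without any 1 of the shLucif libraries or without sh2 replicate 1 or 3.

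Ratios within a library do not depend on a scaling factor common to all its genes. A trend with transcript length can still alter them, and no ratio was computed with that trend removed. Mcm3 stood at 0.493, 0.471 and 0.525 of the Mcm7 level in the sh3 libraries, a mean of 0.496 ± 0.0269 (SD, n = 3), against 1.14 ± 0.0750 with sh1, 1.12 ± 0.0598 with sh2 and 1.11 ± 0.0162 with shLucif. The ratio of Mcm2 to Mcm7 was 0.727 ± 0.0511 with sh3, against 1.36 ± 0.0123 with sh1, 1.41 ± 0.0697 with sh2 and 1.19 ± 0.00764 with shLucif. For both ratios the sh3 libraries lay below the other 9 CT26 hairpin libraries. For Mcm2 to Mcm7 they were not the lowest of all groups. Its mean was 0.674 in wild-type CT26 under DMSO and 0.664 with stk, nearer to sh3 than to shLucif. In the groups labelled Hepa1-6 the means ran from 0.401 under DMSO to 0.467 with shLucif. Such a ratio shows unequal change and not which gene changed. With 3 libraries against 3, an exact two-sided permutation test of 1 value cannot give a p under 0.1, so the ratios carry no test.

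**Figure D2:**
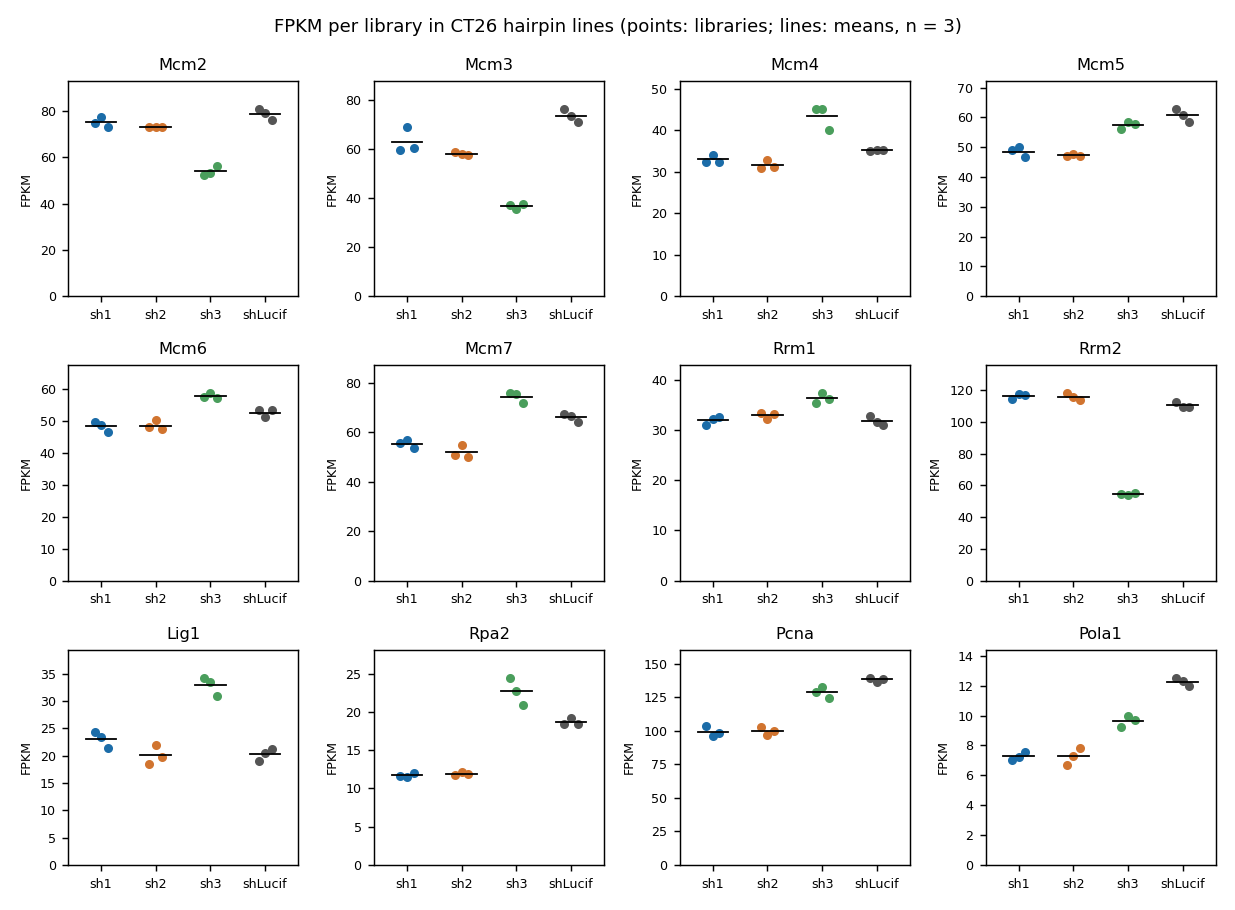
FPKM per library (vertical axes, from 0) of 12 replication genes in CT26 with sh1, sh2, sh3 and shLucif; points are libraries and lines are means of 3. Mcm2, Mcm3 and Rrm2 sit lowest with sh3, while Mcm4, Lig1 and Rpa2 sit highest with sh3.

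Among the partners that turn the ring into a running helicase, none rose with any hairpin. Of Cdc45, the 4 GINS genes and Mcm10, 4 fell with sh1 and with sh2 (Cdc45, Gins2, Gins3 and Gins4), and with sh3 Gins3 alone was called, lower. Gins3, a subunit of the GINS ring, had 6.48, 6.63 and 5.94 FPKM with sh1, 6.34, 6.11 and 7.36 FPKM with sh2 and 6.04, 7.15 and 6.58 FPKM with sh3, against 9.02, 9.26 and 8.27 FPKM with shLucif. All 9 hairpin libraries lay below the controls. The log2 fold change was -0.42 with sh1 (SE 0.0763, adjusted p = 0.00130), -0.38 with sh2 (adjusted p = 0.00261) and -0.38 with sh3 (adjusted p = 0.00157). Gins4, another GINS subunit, had 30.0, 30.8 and 28.8 FPKM with sh1, 28.2, 26.4 and 30.5 FPKM with sh2 and 35.8, 37.3 and 35.6 FPKM with sh3, against 38.3, 37.04 and 37.8 FPKM with shLucif. Here sh1 and sh2 lay well below the controls (log2 fold change -0.33 and -0.40, adjusted p = 0.000401 and 9.24e-05), and the difference with sh3 did not pass the test (-0.06, adjusted p = 0.359). Gins2 shares 67.3% of its exon bases with Gse1 on the other strand, and the sources used here do not say whether counting used strand, so its values are uncertain, and its sh2 call was lost without shLucif replicate 1 or sh2 replicate 2 or 3. Mcm10, which helps CDC45 and the helicase engage at origins, held between 9.54 and 10.7 FPKM in all 12 CT26 hairpin libraries and was not called.

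Origin licensing genes moved little with sh1 and sh2. None of the 4 was called with sh1, and with sh2 Cdt1, whose product brings MCM rings to origins, fell to 23.9, 24.9 and 23.5 FPKM, against 27.0, 26.2 and 27.1 FPKM with shLucif (log2 fold change -0.15, adjusted p = 0.00875). With sh3 Cdt1 rose to 32.5, 31.6 and 32.8 FPKM (0.26, adjusted p = 0.000127). Orc6, the smallest subunit of the origin recognition complex, had 26.0, 28.6 and 28.0 FPKM with sh3, against 42.9, 38.1 and 39.3 FPKM with shLucif. These groups did not overlap, and the log2 fold change was -0.53 (SE 0.0686, adjusted p = 7.50e-05). With sh1 and sh2, Orc6 was not called (-0.06 and -0.03, adjusted p = 0.514 and 0.788). Cdc6, which loads the ring together with CDT1, was called higher with sh3 (0.18, adjusted p = 0.0314), a call that was lost when shLucif replicate 1 or 3 or sh3 replicate 1 or 3 was left out. Orc1 had 3.54, 3.83 and 3.21 FPKM with sh3, against 3.19, 2.56 and 3.06 FPKM with shLucif and was not called (adjusted p = 0.0637).

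Among the polymerases and primase, Pola1, the catalytic subunit of DNA polymerase alpha, stood out. It had 7.04, 7.23 and 7.55 FPKM with sh1, 6.71, 7.28 and 7.82 FPKM with sh2 and 9.26, 10.0023 and 9.69 FPKM with sh3, against 12.5, 12.3 and 12.0 FPKM with shLucif. All hairpin libraries lay below the controls, and the sh3 libraries lay between the controls and the others. The log2 fold change was -0.68 with sh1 (SE 0.0541, adjusted p = 3.66e-06), -0.68 with sh2 (adjusted p = 3.52e-06) and -0.32 with sh3 (adjusted p = 0.000493). Its partners in the primase complex, Pola2, Prim1 and Prim2, were called with no hairpin, with log2 fold changes between -0.12 and 0.08. Pold1, the catalytic subunit of polymerase delta, rose with sh3 to 30.1, 29.1 and 27.2 FPKM, against 20.9, 21.7 and 22.1 FPKM with shLucif (0.40, adjusted p = 0.000362). Pole, that of polymerase epsilon, fell with sh2 to 7.13, 7.26 and 8.07 FPKM, against 8.87, 8.81 and 8.60 FPKM with shLucif (-0.20, adjusted p = 0.00605).

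The sliding clamp and its loader were the role in which every member fell with sh1 and with sh2. Pcna, the clamp that tethers polymerases to DNA, had 104, 96.1 and 98.5 FPKM with sh1, 103, 96.8 and 100.2 FPKM with sh2 and 129, 132 and 124 FPKM with sh3, against 139.6, 136 and 139 FPKM with shLucif. The sh1 and sh2 libraries lay far below the controls, and the sh3 libraries just below them. The log2 fold change was -0.47 with sh1 (SE 0.0385, adjusted p = 4.38e-06) and -0.47 with sh2 (adjusted p = 4.86e-06). With sh3 it was -0.11 (adjusted p = 0.0389), a call that was lost without shLucif replicate 1, 2 or 3 or sh3 replicate 1 or 3. The pseudogene Pcna-ps2 holds 19.1% of the 50-base words of Pcna, so reads could be split between them, and it fell with sh1 (-0.41) and sh2 (-0.38) too. Rfc4, a small subunit of the loader, had 18.8, 19.6 and 23.1 FPKM with sh1, 20.5, 21.3 and 20.2 FPKM with sh2 and 24.4, 24.0 and 23.2 FPKM with sh3, against 27.2, 27.2 and 28.4 FPKM with shLucif. All hairpin libraries lay below the controls. Its log2 fold change was -0.42 with sh1 (SE 0.0640, adjusted p = 0.000435), -0.40 with sh2 (adjusted p = 0.000571) and -0.20 with sh3 (adjusted p = 0.0206), the last lost without shLucif replicate 3 or sh3 replicate 3. Rfc2, another small subunit, had 11.6, 11.5 and 10.47 FPKM with sh1, 10.6, 10.8 and 9.91 FPKM with sh2 and 16.3, 14.3 and 16.0 FPKM with sh3, against 14.9, 14.6 and 14.4 FPKM with shLucif. It fell with sh1 (-0.36, adjusted p = 0.000551) and with sh2 (-0.45, adjusted p = 0.000110), and was not called with sh3 (0.08, adjusted p = 0.250). Rfc1, the large subunit of the loader, had 17.1, 16.6 and 17.3 FPKM with sh1, 15.8, 17.3 and 17.3 FPKM with sh2 and 26.1, 25.6 and 24.9 FPKM with sh3, against 19.3, 20.5 and 20.3 FPKM with shLucif. It lay below the controls with sh1 and sh2 and above them with sh3 (-0.22, -0.24 and 0.34; adjusted p = 0.00220, 0.00148 and 7.54e-05).

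RPA2 and RPA1 are subunits of the complex that covers single-stranded DNA at forks. Rpa2 had 11.7, 11.5 and 12.0 FPKM with sh1, 11.7, 12.1 and 11.9 FPKM with sh2 and 24.5, 22.7 and 20.8 FPKM with sh3, against 18.4, 19.2 and 18.5 FPKM with shLucif. The groups did not overlap, with sh1 and sh2 below and sh3 above the controls. Of all genes tested, 25.1% lay wholly lower with sh1, 27% wholly lower with sh2 and 35.8% wholly higher with sh3. The log2 fold change was -0.63 with sh1 (SE 0.0519, adjusted p = 4.92e-06), -0.61 with sh2 (adjusted p = 6.35e-06) and 0.27 with sh3 (adjusted p = 0.00130). Rpa1 had 14.4, 14.2 and 12.8 FPKM with sh1, 14.3, 13.6 and 19.5 FPKM with sh2 and 21.9, 22.0 and 19.9 FPKM with sh3, against 18.1, 17.5 and 17.1 FPKM with shLucif. It was called with sh1 and no other hairpin (-0.33, adjusted p = 0.0327), a call lost without any 1 of the shLucif libraries or without sh1 replicate 2 or 3. With sh2, replicate 3 lay above the controls and the other 2 below them, and without replicate 3 Rpa1 was called lower (-0.31, adjusted p = 0.00415). Lig1, the ligase that seals lagging-strand fragments, had 34.3, 33.4 and 30.9 FPKM with sh3, against 19.1, 20.5 and 21.2 FPKM with shLucif. The groups did not overlap, and Lig1 rose more than any other member with sh3 (0.67, SE 0.0711, adjusted p = 1.69e-05). It was not called with sh1 (0.17, adjusted p = 0.0796) or sh2 (-0.02, adjusted p = 0.873).

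Fen1, the flap nuclease that trims lagging-strand primers, varied widely between libraries of a group. It had 26.2, 24.9 and 25.7 FPKM with sh1, 25.3, 22.3 and 12.5 FPKM with sh2 and 23.0, 22.9 and 9.64 FPKM with sh3, against 42.7, 37.6 and 39.4 FPKM with shLucif. All hairpin libraries lay below the controls, but 1 library each of sh2 and sh3 stood far below the other 2 of its group. Fen1 was called lower with sh2 (-1.02, SE 0.3004, adjusted p = 0.0203) and sh3 (-1.16, adjusted p = 0.00712) and not with sh1 (-0.62, adjusted p = 0.130). The sh2 call was lost without shLucif replicate 1 or sh2 replicate 3. Of the exon bases of Fen1, 84.2% are shared with Gm10143 and Tmem258 on the other strand, so its values are uncertain. Smaller overlaps, of 10.7% to 15.1% of exon bases, were found for Orc1, Rfc5, Mcm7, Rfc4 and Rfc2, and 23.3% of the 50-base words of Mcm7 also occur in other genes.

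Ribonucleotide reductase, which makes deoxynucleotides, is built of a large subunit (Rrm1) and a small one (Rrm2), and their mRNAs changed in opposite directions with sh3. Rrm2 had 114, 118 and 117 FPKM with sh1, 118, 116 and 114 FPKM with sh2 and 54.6, 53.8 and 55.2 FPKM with sh3, against 113, 109 and 109.8 FPKM with shLucif. Only the sh3 libraries lay below the controls, and there Rrm2 fell by 1.01 on the log2 scale (SE 0.0291, adjusted p = 3.10e-09). With sh1 and sh2 the log2 fold changes of 0.07 and 0.07 did not pass the test (adjusted p = 0.0764 and 0.0983). Rrm1 rose with sh3 to 35.4, 37.3 and 36.2 FPKM, against 32.8, 31.7 and 31.1 FPKM with shLucif (0.18, adjusted p = 0.00147). The ratio of Rrm2 to Rrm1 was 1.54, 1.44 and 1.52 in the sh3 libraries, a mean of 1.502 ± 0.0529 (SD, n = 3), against 3.64 ± 0.0502 with sh1, 3.51 ± 0.0956 with sh2 and 3.47 ± 0.0531 with shLucif. No library of any other group, in either line or table, had a ratio under 2.24. The exons of Rrm1 cover 11012 bases and those of Rrm2 2771, and the part of a length trend in this ratio was not tested. Tyms, which makes thymidylate, fell with all 3 hairpins (-0.31, -0.30 and -0.23; adjusted p = 0.00177, 0.00217 and 0.00624).

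**Figure D3:**
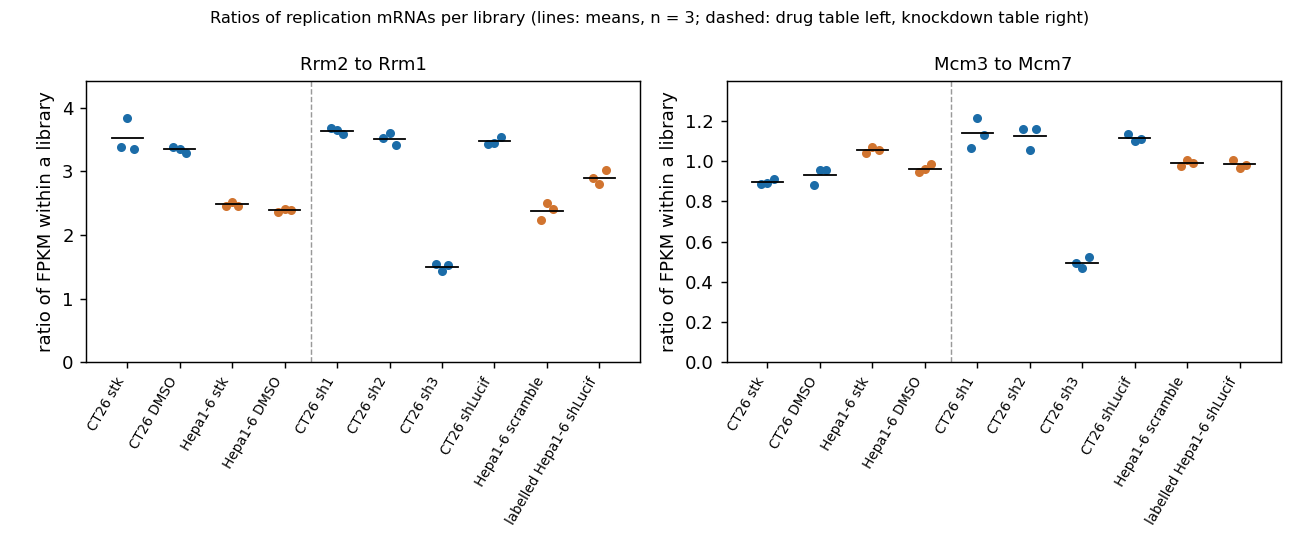
Ratio of Rrm2 to Rrm1 (left) and of Mcm3 to Mcm7 (right) in each of the 30 libraries (points; CT26 blue, Hepa1-6 orange), with group means (lines, n = 3); the dashed line separates the drug table from the knockdown table, which were normalized separately. In both panels the 3 sh3 libraries of CT26 sit below all others.

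Chaf1a and Chaf1b encode subunits of the factor that places histones on new DNA. Chaf1a fell with sh1 and sh2 and rose with sh3 (-0.24, -0.30 and 0.23; adjusted p = 0.000590, 0.000126 and 0.000499). It shares 52.5% of its exon bases with Ubxn6 on the other strand. Chaf1b rose with sh3 to 6.95, 7.96 and 5.73 FPKM, against 4.51, 5.04 and 4.84 FPKM with shLucif (0.43, adjusted p = 0.00316), and was not called with sh1 or sh2 (adjusted p = 0.252 and 0.209).

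The difference between hairpins was tested directly, with sh3 set against sh1 and sh2 averaged. The shLucif libraries do not enter this difference, but they were in the model that set the spread and the filter on low values. In this test 25 of the 37 members were higher with sh3 and 4 lower, where 35.5% of all genes were called higher, 24.7% lower and 60.2% in either direction. The median member differed by 0.25 on the log2 scale, against 0.06 over all genes tested. With the length trend removed, 22 members were higher and 4 lower. The 4 lower ones were Rrm2, Mcm3, Orc6 and Mcm2, 1 nucleotide enzyme, 2 ring subunits and 1 origin factor. Rrm2 was lower by the widest margin (54.6, 53.8 and 55.2 FPKM with sh3; log2 difference -1.08, SE 0.0252, adjusted p = 1.52e-10), followed by Mcm3 (-0.70, adjusted p = 2.93e-07). All 6 clamp and loader genes were higher with sh3, with differences between 0.21 (Rfc4) and 0.57 (Rfc1, adjusted p = 3.29e-07). Rpa2 differed by 0.88 (SE 0.0450, adjusted p = 3.97e-08), Lig1 by 0.59 (adjusted p = 9.19e-06) and Rpa1 by 0.51 (adjusted p = 0.000669). In each of the 3, the sh3 libraries lay above all 6 of the sh1 and sh2 libraries, as they did in 31.7% of all genes tested. The calls of Orc1, Pola2 and Chaf1b were lost without sh3 replicate 1 or 2. Soat1 itself differed between the hairpins (2.52, 2.54 and 2.71 FPKM with sh3, against 3.29, 3.23 and 3.28 FPKM with sh1 and 3.44, 3.55 and 3.41 FPKM with sh2; -0.28, adjusted p = 4.12e-05).

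Other genes of the same pathway, from 4 lists, were read in the same fits. Over all genes tested, as above, 19.1% rose and 18.7% fell with sh1, 18.9% rose and 20% fell with sh2, and 30.9% rose and 21.6% fell with sh3. Of 40 tested replication genes outside the 37, 2 rose and 9 fell with sh1 (5% and 22.5%), 3 rose and 11 fell with sh2 (7.5% and 27.5%), and 17 rose and 8 fell with sh3 (42.5% and 20%). Pole2, the second subunit of polymerase epsilon, fell with sh1 (-0.45) and sh2 (-0.40) and rose with sh3 (0.75), Asf1b, a histone chaperone, fell with sh1 (-0.47) and sh2 (-0.41) and was not called with sh3 (0.02), and Pold4, a small subunit of polymerase delta, rose with each hairpin (0.69, 0.72 and 0.85). Of 16 nucleotide supply genes, 3 rose and 6 fell with sh1 (18.8% and 37.5%), 2 rose and 7 fell with sh2 (12.5% and 43.8%), and 6 rose and 5 fell with sh3 (37.5% and 31.2%). Dut, which destroys dUTP, fell with sh1, sh2 and sh3 (-0.58, -0.65 and -0.44), as did Dctd, a dCMP deaminase (-0.69, -0.66 and -0.56). Rrm2b, the p53-inducible small subunit of the reductase, rose with each (0.53, 0.71 and 0.39). Of 30 tested E2F and G1/S control genes, 4 rose and 11 fell with sh1 (13.3% and 36.7%), 7 rose and 9 fell with sh2 (23.3% and 30%), and 15 rose and 6 fell with sh3 (50% and 20%). E2f3, an activating E2F factor, rose with each hairpin (0.87, 0.81 and 0.75; adjusted p = 0.00940, 0.0133 and 0.0141), and Rb1, which holds E2F factors in check, fell with sh1 (-0.73) and sh2 (-0.70) and was not called with sh3 (-0.16). Of 20 mitosis genes, 2 rose and 2 fell with sh1 (10% each), 2 rose and 3 fell with sh2 (10% and 15%), and 15 rose (75%) and none fell with sh3, with Kif20a (0.59), Bub1 (0.45) and Cdc20 (0.45) changed most. Mki67, the proliferation antigen, fell with sh1 and sh2 (-0.30 and -0.43) and rose with sh3 (0.19). Kif20a also fell with sh1 and sh2 (-0.24 and -0.25), while Bub1 rose with both (0.16 and 0.23). In the direct test of sh3 against sh1 and sh2, 20 of the 40 other replication genes were higher and 6 lower, 10 and 4 of the 16 nucleotide supply genes, 17 and 10 of the 30 E2F and G1/S control genes, and 17 and 0 of the 20 mitosis genes, where 35.5% of all genes were called higher and 24.7% lower.

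The drug comparison asks which genes respond to stk. In CT26, no member passed the test, where 0.748% of the 11358 genes tested were called, 0.132% higher and 0.616% lower. An unadjusted p under 0.05 was found for 6 members, and the share of all genes under it was not counted. Cdc6 had the lowest p, with 7.68, 7.24 and 7.63 FPKM with stk, against 6.43, 6.27 and 6.51 FPKM with DMSO. The stk libraries lay above the DMSO libraries (log2 fold change 0.20, SE 0.0483, adjusted p = 0.136). Mcm2 had 49.2, 48.0 and 51.0 FPKM with stk, against 45.1, 46.2 and 45.7 FPKM with DMSO (0.11, adjusted p = 0.231), and Cdt1 had 28.4, 26.3 and 26.3 FPKM with stk, against 23.8, 25.3 and 22.2 FPKM with DMSO (0.18, adjusted p = 0.247). These groups did not overlap either, where 9.42% of all genes tested lay wholly higher with stk and 12% wholly lower. The fold change was above 0 for 31 of the 37 members, with a median of 0.06 on the log2 scale, against -0.01 over all genes tested. The share of all genes above 0 was not counted. No gene of the 4 other lists was called in CT26.

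In Hepa1-6, 2 of 37 members were called, both lower, where 0.849% of the 11426 genes tested were called lower, 0.683% higher and 1.53% in either direction. Pcna had 111, 110.0 and 103 FPKM with stk, against 125, 131 and 131 FPKM with DMSO, without overlap (-0.26, SE 0.0412, adjusted p = 0.0443). Gins4 had 39.0, 39.9 and 39.0 FPKM with stk, against 45.6, 46.3 and 47.0 FPKM with DMSO, again without overlap (-0.23, SE 0.0324, adjusted p = 0.0422). Of all genes tested, 14.6% lay wholly lower with stk in Hepa1-6 and 16.2% wholly higher. Both calls were lost in each of the 6 fits that leave out 1 library. Rfc4 had 9.60, 9.80 and 10.7 FPKM with stk, against 12.0, 11.8 and 11.9 FPKM with DMSO (-0.23, adjusted p = 0.0723). The fold change was below 0 for 24 members, with a median of -0.05, against 0.0029 over all genes tested. The share of all genes below 0 was not counted. Fen1 had 57.3, 56.8 and 53.0 FPKM with stk, against 56.6, 27.1 and 24.7 FPKM with DMSO, where 1 DMSO library matched the stk level. It was not called (0.71, adjusted p = 0.199), but without DMSO replicate 1 it was (1.08, adjusted p = 0.00437). Of the other lists, Pole3, a subunit of polymerase epsilon, was called lower (-0.19, adjusted p = 0.0456), as was Ccnb1, the mitotic cyclin B1 (-0.37, adjusted p = 0.0422).

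Whether the lines differ in their response was tested in 1 model of both. No member passed, where 0.304% of the 12822 genes tested were called, 0.109% higher and 0.195% lower, and 9 members had an unadjusted p under 0.05. The response of CT26 minus that of Hepa1-6 had a median of 0.09 over the members, against -0.0035 over all genes, and was above 0 for 32 members. The shares of all genes above 0, or with an unadjusted p under 0.05, were not counted. Pcna came nearest, at 0.24 (SE 0.0479, adjusted p = 0.0807), followed by Mcm7 (0.23, adjusted p = 0.130) and Cdc6 (0.26, adjusted p = 0.142). Pcna held 164, 167 and 169 FPKM with stk, against 171, 168 and 166 FPKM with DMSO, in CT26, where the groups overlapped, unlike in Hepa1-6. Under quantile normalization the Pcna difference passed (0.23, adjusted p = 0.0360).

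**Figure D4:**
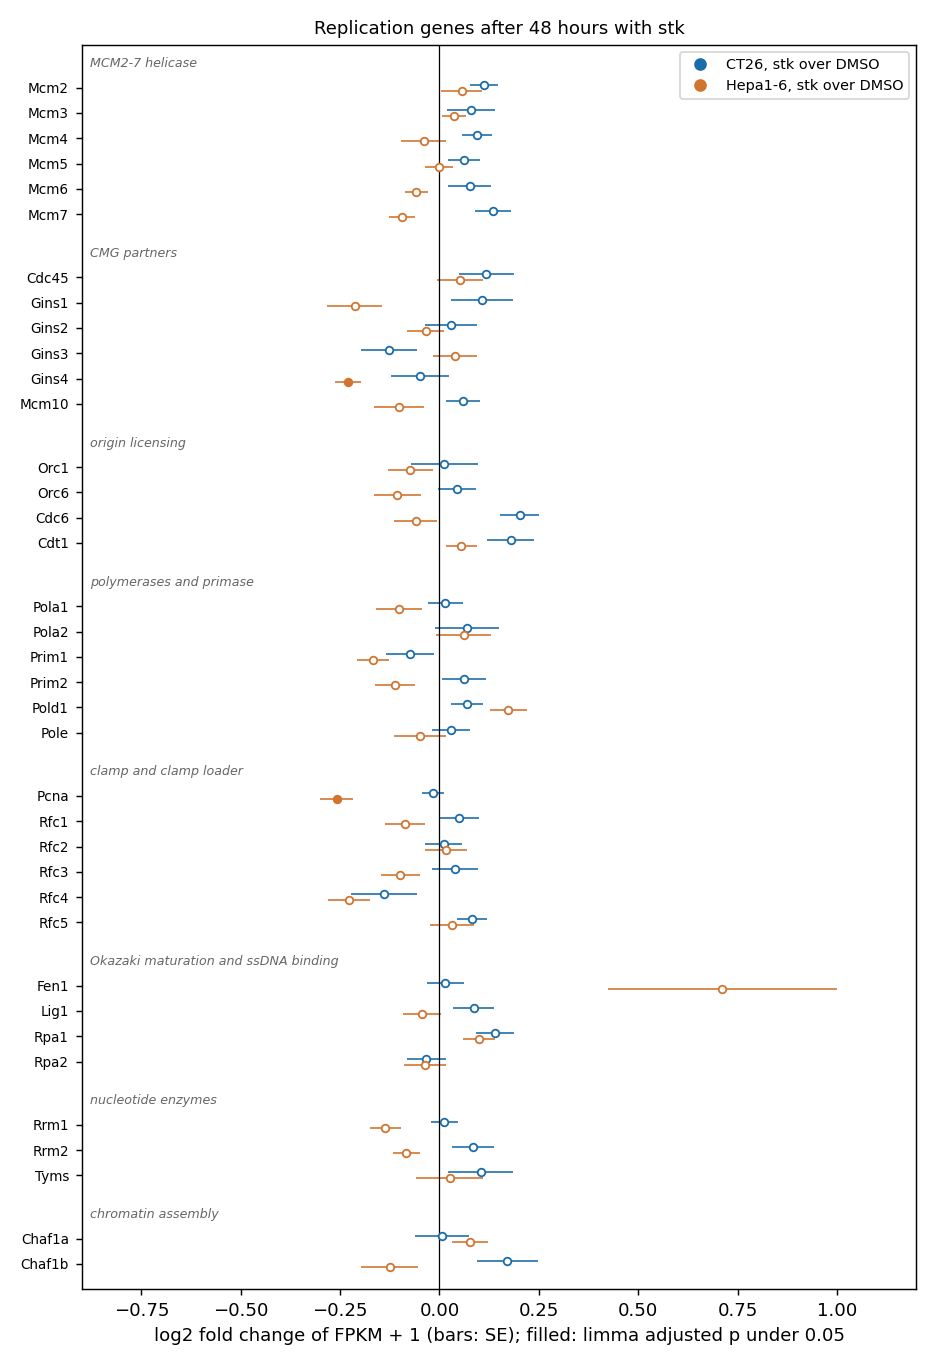
Log2 fold change (horizontal axis, of FPKM + 1) of the 37 replication genes after 48 hours with stk over DMSO, in CT26 (blue) and Hepa1-6 (orange). Bars are standard errors; only Gins4 and Pcna in Hepa1-6 are filled, that is, passed the limma test, and most CT26 points lie right of 0.

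The lines themselves differed in most replication mRNAs. Under DMSO, 17 of 37 members were higher in CT26 and 17 lower, where 38.5% of the 12822 genes tested were called higher and 38.4% lower, so 91.9% of members were called, against 76.8% of all genes. Rfc1 had 25.1, 25.5 and 23.6 FPKM in CT26, against 10.54, 10.9 and 11.5 FPKM in Hepa1-6, the widest margin of any member (1.104, SE 0.0480, adjusted p = 2.03e-09). The other 4 loader subunits did not share it: Rfc3 and Rfc5 were lower in CT26 (-0.65 and -0.28), Rfc4 was higher (0.29) and Rfc2 was not called (0.04, adjusted p = 0.416). Rrm2 had 149, 151 and 140.4 FPKM in CT26, against 82.7, 80.9 and 82.2 FPKM in Hepa1-6 (0.83, adjusted p = 1.63e-08), and Lig1 had 39.1, 41.6 and 39.0 FPKM in CT26, against 22.7, 23.6 and 22.4 FPKM in Hepa1-6 (0.78, adjusted p = 6.57e-08). All 3 nucleotide enzymes were higher in CT26. Several licensing and priming genes were lower. Cdc6 had 6.43, 6.27 and 6.51 FPKM in CT26, against 13.6, 13.6 and 13.7 FPKM in Hepa1-6 (-0.98, SE 0.0472, adjusted p = 5.01e-09). Orc1 and Orc6 were lower in CT26 too (-0.41 and -0.34), and Cdt1 was not called (-0.03, adjusted p = 0.634). Prim1, the catalytic primase subunit, had 11.4, 13.1 and 12.9 FPKM in CT26, against 23.4, 24.3 and 22.7 FPKM in Hepa1-6 (-0.86, adjusted p = 2.43e-08), whereas Pola1 was higher in CT26 (0.70, adjusted p = 6.99e-08). Gins4 had 24.7, 26.3 and 25.6 FPKM in CT26, against 45.6, 46.3 and 47.0 FPKM in Hepa1-6 (-0.83, adjusted p = 1.33e-07). Of the 6 MCM2-7 genes, Mcm2, Mcm4 and Mcm5 were higher in CT26 and Mcm3, Mcm6 and Mcm7 lower. The call of Gins3 (0.15) was lost without CT26 replicate 1 or 3 or Hepa1-6 replicate 1 or 2, and Fen1 was called without Hepa1-6 replicate 3 (-0.56, adjusted p = 0.0431). Of the other lists, 22 of 41 replication genes, 8 of 16 nucleotide supply genes, 12 of 31 E2F and G1/S control genes and 14 of 20 mitosis genes were higher in CT26, and 10, 6, 12 and 4 lower. Cdkn2a, a cell cycle inhibitor locus, was listed at 0 in every CT26 library and had 35.1, 41.6 and 34.6 FPKM in Hepa1-6. Ccnd2, cyclin D2, had 23.2, 23.2 and 24.3 FPKM in CT26 and was listed at 0 in Hepa1-6.

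**Figure D5:**
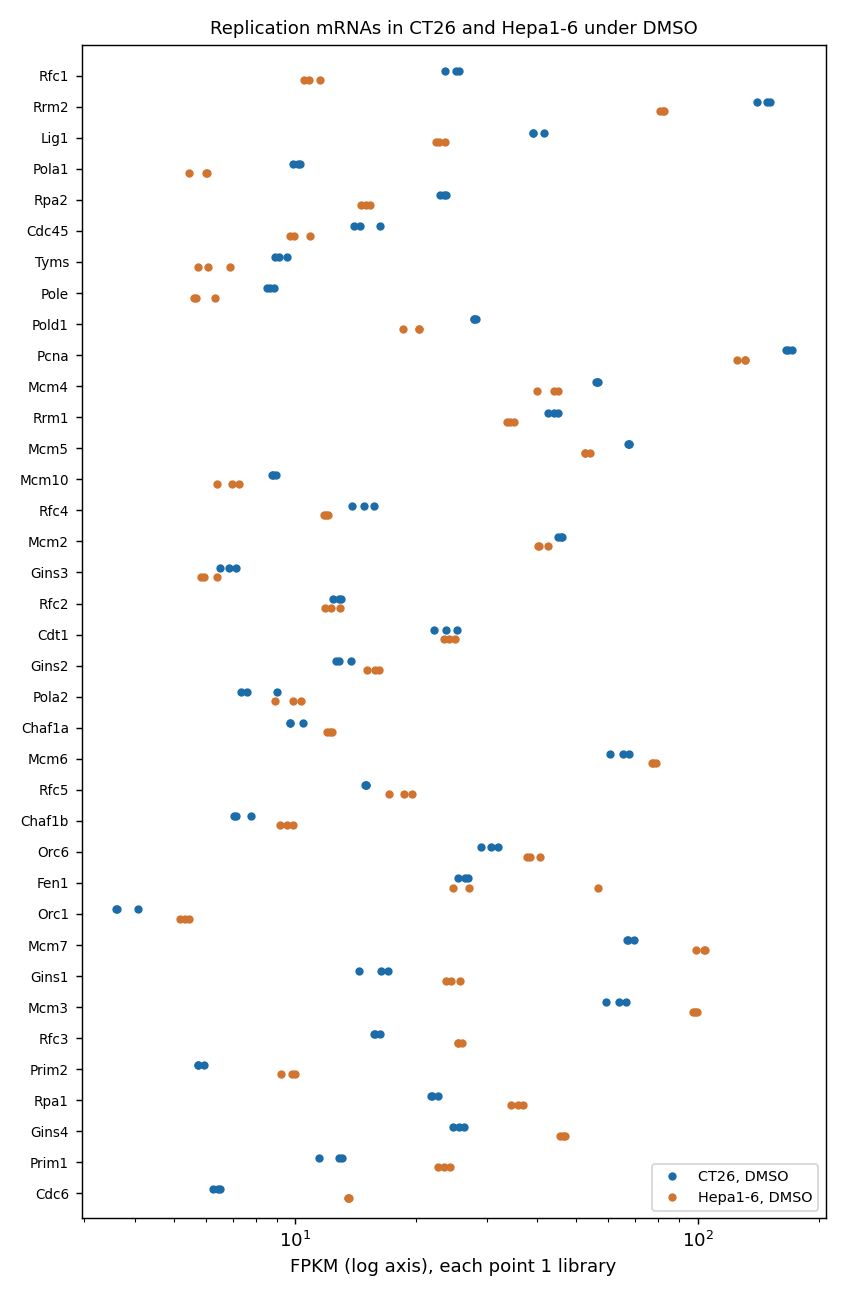
FPKM (horizontal log axis) of the 37 replication genes in CT26 (blue) and Hepa1-6 (orange) under DMSO, 1 point per library, ordered by the difference between the lines. Rfc1 at the top has its CT26 points furthest to the right of the Hepa1-6 points, and Cdc6 at the bottom furthest to the left.

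In the knockdown table, Hepa1-6 with the scramble hairpin was set against the libraries labelled Hepa1-6 shLucif, which held few hepatocyte markers. Here 7 of 37 members were higher with scramble and 16 lower, where 31.4% of the 12055 genes tested were called higher, 36.8% lower and 68.2% in either direction. Lig1 had 15.9, 16.4 and 14.0 FPKM with scramble, against 29.5, 28.3 and 27.8 FPKM in the libraries labelled shLucif (-0.85, SE 0.0627, adjusted p = 2.58e-05). Rfc1 had 10.6, 10.0355 and 9.44 FPKM with scramble, against 18.4, 18.8 and 18.4 FPKM (-0.83, adjusted p = 9.13e-06), and Pola1 had 5.45, 5.55 and 5.41 FPKM with scramble, against 9.13, 9.90 and 8.97 FPKM (-0.67, adjusted p = 3.32e-05). Rrm2 had 72.0, 77.3 and 71.4 FPKM with scramble, against 108, 107 and 108 FPKM in the libraries labelled shLucif (-0.55, adjusted p = 2.13e-05). In these 4 genes the scramble libraries lay below the others without overlap, as they did in 39.5% of all genes tested. In 33.7% of all genes they lay above without overlap. Mcm5 had 40.4, 42.2 and 39.9 FPKM with scramble, against 58.0, 62.1 and 59.3 FPKM (-0.54, adjusted p = 2.72e-05). Prim1 went the other way, with 27.4, 25.5 and 25.3 FPKM with scramble, against 18.6, 17.8 and 18.0 FPKM (0.50, adjusted p = 6.71e-05). The call of Pcna was lost without labelled shLucif replicate 1, that of Prim2 without labelled shLucif replicate 2 or 3 or scramble replicate 1 or 3, and that of Rfc2 in every such fit but the one without scramble replicate 1. Of the other lists, 8 of 41 replication genes were higher with scramble and 17 lower, 3 and 8 of 16 nucleotide supply genes, 7 and 13 of 30 E2F and G1/S control genes, and 3 and 9 of 20 mitosis genes. Pole2 (-1.31), Tk1, a thymidine kinase (-1.25), and E2f8, a repressing E2F factor (-1.68), were among the lower ones. Ccnd2 had 0.0329, 0.0356 and 0.0166 FPKM with scramble, against 15.5, 15.9 and 15.7 FPKM in the libraries labelled shLucif.

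CT26 with shLucif, set against the same libraries labelled Hepa1-6 shLucif, had 12 members higher and 18 lower, where 33% of the 13129 genes tested were called higher, 39.4% lower and 72.4% in either direction. Orc1 had 3.19, 2.56 and 3.06 FPKM in CT26, against 7.14, 7.27 and 6.55 FPKM in the libraries labelled Hepa1-6 shLucif (-1.02, SE 0.0763, adjusted p = 8.14e-09). Cdc6 was lower in CT26 here as well (5.82, 6.20 and 5.79 FPKM, against 10.3, 10.3 and 10.4 FPKM; -0.71, adjusted p = 1.71e-08), and so was Rpa1 (18.1, 17.5 and 17.1 FPKM, against 27.3, 30.7 and 30.3 FPKM; -0.71, adjusted p = 8.66e-06). Gins3 was higher in CT26 (9.02, 9.26 and 8.27 FPKM, against 4.88, 4.19 and 5.03 FPKM; 0.79, adjusted p = 3.02e-07), as was Rfc4 (27.2, 27.2 and 28.4 FPKM, against 16.3, 15.7 and 16.2 FPKM; 0.74, adjusted p = 1.15e-08). Fen1 had 42.7, 37.6 and 39.4 FPKM in CT26, against 12.8, 14.0 and 37.1 FPKM (1.04, adjusted p = 0.0385), a call that was lost without any 1 of the CT26 libraries or without labelled shLucif replicate 1 or 2. Rrm2 was not called (0.04, adjusted p = 0.268), and its direction depended on the scaling, with a call lower under quantile normalization (-0.08, adjusted p = 0.0250) and higher with the length trend removed (0.07, adjusted p = 0.0447). Rfc1 was called only by a small margin (0.10, adjusted p = 0.0427), a call lost without CT26 replicate 2 or 3 or any 1 of the labelled libraries. The call of Gins1 was lost without CT26 replicate 2 or labelled shLucif replicate 2 or 3. Of the other lists, 13 of 41 replication genes, 5 of 16 nucleotide supply genes, 10 of 31 E2F and G1/S control genes and 2 of 20 mitosis genes were higher in CT26, and 17, 5, 11 and 15 lower.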

How the data were processed

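RNA was measured by paired-end sequencing of total RNA, and the labels' protocols name TRIzol extraction and trimming with Skewer. The authors deposited FPKM, 1 table per experiment. The submitters' processing notes list GRCm38, HISAT2, STAR, DESeq2 and edgeR, and the sources used here do not tie any of them to the FPKM. Read totals are unknown, and a relative depth, from values under 0.05 FPKM, was 0.895 to 1.12 over drug libraries and 0.652 to 1.16 over knockdown libraries, lowest in labelled Hepa1-6 shLucif replicate 1. Of 45 labelled samples, 30 had a column, the 3 of sh1 as a group only, since their column numbers do not single out a sample; 21 columns matched no label and were not used. The table names are swapped between the experiments, so tables were assigned by their columns. Each experiment has a single batch date, so tests were made within a table.

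Tests used limma 3.58.1 under R 4.3.3 on log2(FPKM + 1), its prior variance following mean level, and kept genes that reached 1 FPKM in 3 or more of the libraries fitted. The pseudocount shrinks changes of low genes. Each line of a table had 1 model, and comparisons between lines used 1 model of the whole table. P-values are two-sided, adjusted by the Benjamini-Hochberg method over all genes tested. The method was tested on simulated data. The members and lists were chosen with earlier results of these data known, so counts of members describe them and are not independent evidence. In each comparison the 6 called members with the widest change, or the 3 with the lowest p where fewer than 3 were called, are given per library, and up to 3 called genes of each other list are named; further members are named for their role. One gene that this rule names is not reported here. Alternatives were a pseudocount of 0.1, no filter, a minimum of 5 FPKM, quantile normalization, equal FPKM sums, removal of a trend with transcript length (GENCODE M21), 1 model per table, a replicate block and leaving out each library. Replicate numbers do not pair the libraries: over 18 same-numbered pairs the correlation of deviations ran from -0.067 to 0.091. No columns of a group were identical. The figures were drawn with matplotlib 3.10.9.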

Additional observations from a re-analysis of the deposited data

Results flagged for a closer look

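Fbxo5, which encodes an inhibitor of the anaphase-promoting complex that is a target of E2F, was the 1 gene of the members and lists whose response to stk differed between the lines. It had 27.4, 27.8 and 26.6 FPKM with stk in CT26, against 23.8, 24.3 and 24.8 FPKM with DMSO, where the stk libraries lay above. In Hepa1-6 it had 21.5, 22.0 and 21.9 FPKM with stk, against 23.2, 24.5 and 24.2 FPKM with DMSO, where the stk libraries lay below. Of all genes tested, 9.42% lay wholly higher with stk in CT26 and 14.6% wholly lower in Hepa1-6. The response of CT26 minus that of Hepa1-6 was 0.29 in log2 units (SE 0.0477; limma, adjusted p = 0.0416). Neither line alone passed the test (adjusted p = 0.132 in CT26 and 0.115 in Hepa1-6). Of the 12 fits that each leave out 1 library, the difference passed only in the one without Hepa1-6 DMSO replicate 1. It also failed with equal FPKM sums, with the length trend removed and with the replicate block.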

How the results depend on the processing

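No fold change of the genes picked by the naming rule changed direction under the alternatives run. For other called members, only whether the call held in its direction was recorded. Rrm2, not called between the lines labelled shLucif (0.04), was called lower under quantile normalization (-0.08) and higher with the length trend removed (0.07). The number of members called stayed within 1.5 times the reported one in every comparison but those of stk. For stk in Hepa1-6, where 2 members were called, 0 were called with no filter on low values, 1 with the length trend removed, 4 in 1 model of the whole table (Pold1 higher, Rrm1, Pcna and Gins4 lower), 0 with the replicate block and 0 to 1 when 1 library was left out. For the difference between the lines in response to stk, where 0 were called, Pcna was called under quantile normalization and with the length trend removed (1 member each), and 0 to 1 members when 1 library was left out (Fen1, without Hepa1-6 DMSO replicate 1). Leaving out 1 library gave 17 to 19 members called with sh1, 18 to 22 with sh2, 20 to 23 with sh3, 26 to 30 for sh3 against sh1 and sh2, 21 to 23 for scramble, 33 to 35 between the lines under DMSO and 28 to 29 between those labelled shLucif. The calls that held under all alternatives were 17 of 19 with sh1, 18 of 23 with sh2, 17 of 23 with sh3 and 26 of 29 for sh3 against sh1 and sh2. With the replicate block 0 members were called for stk in CT26, 21 with sh2, 22 with sh3, 23 for scramble, 33 and 28 between the lines and 0 for the difference in response; of the members' counts, the block moved only that for stk in Hepa1-6 by over 1.5 times. No paired analysis was possible because the sh1 columns carry no number that the labels tie to a sample, for sh1 and for sh3 against sh1 and sh2. Over all genes, stk calls in CT26 numbered 85, but 14 with no filter, 133 at a minimum of 5 FPKM, 204 in 1 model, 4 with the block and 2 to 92 with 1 library left out. In Hepa1-6 they numbered 175, but 4, 473, 928, 4 and 8 to 59 under these, 388 with equal FPKM sums and 91 with the length trend removed. For the difference they numbered 39, but 11 with the block and 7 to 28 with 1 library left out. The share of stk calls that were higher was 17.6% in CT26, but 30.2% under quantile normalization, 43.8% with the length trend removed, 28.6% with no filter, 50% with the block and 10.9% to 100% with 1 library left out. In Hepa1-6 it was 44.6%, but 67.3% with equal FPKM sums, 25% with the block and 15.3% to 50% with 1 library left out, lowest without stk replicate 1. Few calls underlie several of these shares, such as 2 in CT26 without DMSO replicate 2. The causes were not tested. Unknown depth limits the precision of low members such as Orc1.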
